A study of Homo sapiens with 8 samples.

Results

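Immediate early genes are transcribed within minutes of a stimulus, from promoters that hold their transcription factors in place beforehand, and their short-lived mRNAs are then lost again. Several of them encode the FOS and JUN proteins, which pair through leucine zippers (bZIP domains) to form the transcription factor AP-1; others encode the zinc finger factor EGR1, the stress-induced factor ATF3, or the IER proteins. In plasma cells and multiple myeloma (MM), AP-1 and EGR1 are known as targets of growth factor and stress signalling, and as regulators of survival and of the response to drugs.

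Here 10 such genes, FOS, FOSB, FOSL2, JUN, JUNB, JUND, EGR1, ATF3, IER2 and IER5, were followed in RNA-seq of MM cell lines treated with THZ1, a covalent inhibitor of the transcriptional kinase CDK7. They were chosen by symbol out of 63677 genes counted; each symbol was looked up in the authors' gene table, and all 10 passed the filter on low counts in both lines. The lines were JJN3 and H929, both MM lines grown in the same serum-containing medium, given 50 nM THZ1 or its vehicle DMSO for 24 h, and each of the 4 groups had 2 libraries, 8 in all. No source states that the libraries of a group came from separate cultures, so the p-values measure only the spread between these libraries. Each line stands for itself and not for a set of lines, and a single time of 24 h, long after the early phase of an induction, was measured.

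Total counts on genes were between 17476443 and 19194371 per library, and a count of 3, taken as the upper bound for a gene with no read, equals 0.156 to 0.172 CPM (counts scaled by library size), a bound that covers counting error only. The libraries labelled H929 differed in more than treatment. Of the reads on variable segments of the immunoglobulin light chains, lambda segments took 99.99% and 97.96% in the 2 libraries labelled H929 DMSO, but 0.212% and 0.211% in those labelled H929 THZ1 and 0.257% to 0.391% in JJN3. EPCAM, an epithelial adhesion molecule, was counted 2391 and 2249 times under the label H929 DMSO and 1 and 6 times under H929 THZ1, while SLAMF7, a plasma cell marker, had 2 and 174 against 8948 and 9173. Treatment and these other differences cannot be told apart between the H929 labels, so the libraries are called by their labels below, and JJN3 is the line in which DMSO and THZ1 can be compared. Of 8 plasma cell markers, 0 were at 0 in both libraries of any group; their summed level was 2075 to 2077 CPM in JJN3 with DMSO, 1451 to 1483 with THZ1, 1779 to 1920 under the label H929 DMSO and 6831 to 6938 under H929 THZ1. In JJN3 the share of counts on mitochondrial transcripts was 3.36% and 1.65% with DMSO and 5.34% and 6.63% with THZ1. In bulk RNA, fewer cells with a transcript and less of it per cell cannot be told apart.

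The 10 genes are compact. In the GENCODE annotation on GRCh37, 4 of them (JUN, JUNB, JUND and IER5) have a single exon, as do 4.90% of 19207 protein-coding genes, and their median span is 4351 bp against 28047 bp for all coding genes. Pentamers ATTTA, the core of the AU-rich elements that mark mRNAs for rapid decay, occur 10 times in the 3′ end of IER5 behind the coding sequence, 9 times in that of FOSL2 and 5 times in that of FOS, and not in that of IER2 (count 0); 6 of the 10 have at least 3, as do 41.3% of coding genes. These are features of sequence only, and no mRNA half-life was measured. JUNB lies at chromosome 19, bases 12902300 to 12904129 on the plus strand, and its exon overlaps that of HOOK2 on the other strand. Whether counting used strand is not stated, so reads of the pair may be mixed; HOOK2 itself had 109 and 118 counts in JJN3 with DMSO and 64 and 67 with THZ1, and 241 and 253 under the label H929 DMSO and 118 and 127 under H929 THZ1, to be read beside the JUNB counts given further on.

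Promoter sequences of all 10 genes were available from RefSeq, and the 250 bases before each start were placed on GRCh37 by exact match. They are shown for EGR1, which moved in the other direction from most members in JJN3, for JUN, whose difference between DMSO and THZ1 had opposite signs in the labelled lines, for JUND, and for FOSB, which had the highest fold change in JJN3. Capitals mark CArG boxes (the site of serum response factor SRF, which this search took as CC, 6 bases A or T, and GG), the cyclic AMP response element TGACGTCA, its variant TGACATCA or TGATGTCA (a known AP-1 and ATF site of the JUN promoter), the AP-1 site TGANTCA with C or G at N, and the TATA box (TATAAA or TATAAG, plus strand only). The other patterns were searched on both strands, and 0 pairs of marked sites overlapped. The EGR1 promoter is chr5:137800918-137801167 (plus strand), that of JUN chr1:59249720-59249969 (minus strand), that of JUND chr19:18392433-18392682 (minus strand) and that of FOSB chr19:45971004-45971253 (plus strand), each written 5′ to 3′ toward the start.
EGR1: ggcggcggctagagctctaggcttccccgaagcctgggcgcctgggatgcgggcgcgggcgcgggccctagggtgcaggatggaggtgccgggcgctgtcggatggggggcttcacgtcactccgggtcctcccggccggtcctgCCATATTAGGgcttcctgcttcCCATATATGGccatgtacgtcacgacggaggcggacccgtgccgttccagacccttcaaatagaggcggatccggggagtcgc
JUN: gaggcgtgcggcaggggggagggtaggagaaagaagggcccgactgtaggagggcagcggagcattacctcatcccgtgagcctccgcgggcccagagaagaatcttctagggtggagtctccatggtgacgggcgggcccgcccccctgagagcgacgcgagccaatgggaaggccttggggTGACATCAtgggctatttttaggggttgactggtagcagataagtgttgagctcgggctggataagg
JUND: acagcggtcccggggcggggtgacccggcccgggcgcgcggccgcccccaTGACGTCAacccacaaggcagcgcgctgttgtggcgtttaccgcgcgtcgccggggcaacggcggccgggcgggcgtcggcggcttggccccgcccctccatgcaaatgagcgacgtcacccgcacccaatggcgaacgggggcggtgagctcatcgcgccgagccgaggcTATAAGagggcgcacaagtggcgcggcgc
FOSB: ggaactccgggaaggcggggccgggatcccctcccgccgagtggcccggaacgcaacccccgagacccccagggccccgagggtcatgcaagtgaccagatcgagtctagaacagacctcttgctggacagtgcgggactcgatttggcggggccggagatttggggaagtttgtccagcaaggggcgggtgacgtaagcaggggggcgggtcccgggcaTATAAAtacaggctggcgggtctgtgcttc
EGR1 was the only member with a CArG box in this window, and it had 2, from -105 to -96 and from -83 to -74 relative to the start; 1.17% of 34796 RefSeq promoters of the same length hold one. The variant TGACATCA lay at -67 to -60 in JUN and occurred in 1 other member, ATF3, against 2.36% of all promoters. The full element TGACGTCA was found in JUND (-200 to -193) and in 1.64% of promoters. Its shorter form TGACG, or CGTCA on the other strand, was found in 8 members and in 21.15% of promoters. This form, not marked on its own above, lay at -64 to -60 in FOS and -60 to -56 in FOSB. It lay at -135 to -131 and -66 to -62 in EGR1 and at -123 to -119 in JUN, and was absent in ATF3 and IER5. The AP-1 site was found in 0 members and 4.21% of promoters, and a TATA box in 6 members and 9.51% of promoters. For 1 of these 6, ATF3, the TATA letters lay at -230 to -225, far from the start. A member was counted if any of its promoters matched, and ATF3 had more than 1, whereas the shares are per promoter. A match is a description of letters, and absence from 250 bases says only that the letters are not there.

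In JJN3, most of these transcripts rose with THZ1: 7 of 10 were called higher than with DMSO and 1, EGR1, lower. Genes were called at an adjusted p under 0.05 (edgeR quasi-likelihood test, Benjamini-Hochberg over all genes tested) and a log2 fold change beyond 0.5. By the same rule 20.6% of 13984 genes tested were higher and 21.3% lower. The median log2 fold change of the 10 genes was 0.81, and that of all genes tested was 0.00. The 10 genes were chosen with earlier results of these data known, so setting them against all genes is not an independent test. Scaling holds the bulk of genes near 0, so every rise or fall given here is relative to the other transcripts. No measure of total mRNA per cell was used, and a change in it would not show. The libraries with THZ1 and DMSO did not overlap in level for 9 of the 10 genes, IER5 being the exception. With 2 libraries per group this is easily met, and the share of all genes without overlap was not counted. The count of 9 therefore does not set these genes apart from others.

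The FOS genes encode proteins that cannot pair with themselves and need a JUN or related partner. FOSB, a member with a strong activation domain, had 8 and 4 counts in the JJN3 libraries with DMSO and 50 and 58 with THZ1. Both libraries with THZ1 stood well above both with DMSO, and FOSB rose 10.1-fold (log2 fold change 3.33, 95% interval 2.48 to 4.19, adjusted p = 3.14e-05). It remained a low transcript, at a mean of 0.310 ± 0.148 CPM with DMSO and 3.14 ± 0.118 CPM with THZ1 (SD, n = 2 each). FOS, the founding member, was counted 57 and 52 times with DMSO, and 86 and 99 times with THZ1. The groups were apart, and FOS rose by a log2 fold change of 0.95 (95% interval 0.48 to 1.42, adjusted p = 0.00267). FOSL2, which encodes the FOS-related protein FRA2, was counted 54 and 28 times with DMSO, and 80 and 76 times with THZ1. The 2 DMSO libraries differed from each other more than the THZ1 libraries did, and the log2 fold change of 1.12 (95% interval 0.46 to 1.78, adjusted p = 0.00744) became 0.71 with an adjusted p of 0.0861 without the DMSO library of 28 counts.

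The JUN genes encode proteins that can pair with FOS or with each other. JUNB, often an antagonist of JUN in growth control, had 1586 and 1432 counts in JJN3 with DMSO and 4308 and 3516 with THZ1. It was the most abundant member per length in JJN3 with THZ1, and it rose 2.98-fold (log2 fold change 1.58, 95% interval 1.30 to 1.86, adjusted p = 2.98e-06). JUN itself, the strongest activator of the family, was counted 386 and 333 times with DMSO, and 461 and 459 times with THZ1. The groups did not overlap, but the log2 fold change of 0.55 (95% interval 0.29 to 0.81, adjusted p = 0.00212) lay close to the limit of 0.5 and fell under it when libraries were scaled to their total counts (0.45), without the second DMSO library (0.43) and without the first THZ1 library (0.48). JUND, the member that resting cells hold at a steady level, was counted 1564 and 1458 times with DMSO, and 1551 and 1848 times with THZ1. After scaling, its THZ1 libraries lay above its DMSO libraries, with a log2 fold change of 0.36 (95% interval 0.18 to 0.54, adjusted p = 0.00343) that is under the limit, so JUND was not called.

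EGR1, a zinc finger factor induced by growth factors through SRF, had 358 and 311 counts in JJN3 with DMSO and 73 and 64 with THZ1. Both THZ1 libraries were far below both DMSO libraries, and EGR1 fell 4.26-fold (log2 fold change -2.09, 95% interval -2.46 to -1.72, adjusted p = 3.14e-06), the only fall among the 10. ATF3, a bZIP factor induced by many stresses that can bind as a partner of JUN, was counted 74 and 68 times with DMSO, and 75 and 122 times with THZ1. One THZ1 library was thus close to the DMSO libraries and the other above them; ATF3 was called higher (log2 fold change 0.66, 95% interval 0.14 to 1.18, adjusted p = 0.0324), but this call rested on the second THZ1 library, without which the log2 fold change was 0.34 (adjusted p = 0.242). It was also lost with DESeq2 (adjusted p = 0.0773), with total counts as scaling (0.0668) and without either DMSO library (0.0724 and 0.138); over all alternatives its adjusted p went from 0.00221 to 0.242.

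IER2, a nuclear protein of the early response, had 385 and 371 counts in JJN3 with DMSO and 838 and 941 with THZ1. It rose 2.69-fold (log2 fold change 1.43, 95% interval 1.22 to 1.63, adjusted p = 1.08e-06), with little spread within either group. IER5, a relative of IER2 known as a cofactor of the heat shock factor HSF1, was counted 679 and 723 times with DMSO, and 533 and 674 times with THZ1. These groups overlapped after scaling, and the log2 fold change was -0.03 (95% interval -0.25 to 0.20, adjusted p = 0.838). The interval leaves out changes beyond the limit of 0.5 in either direction.

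**Figure D1:**
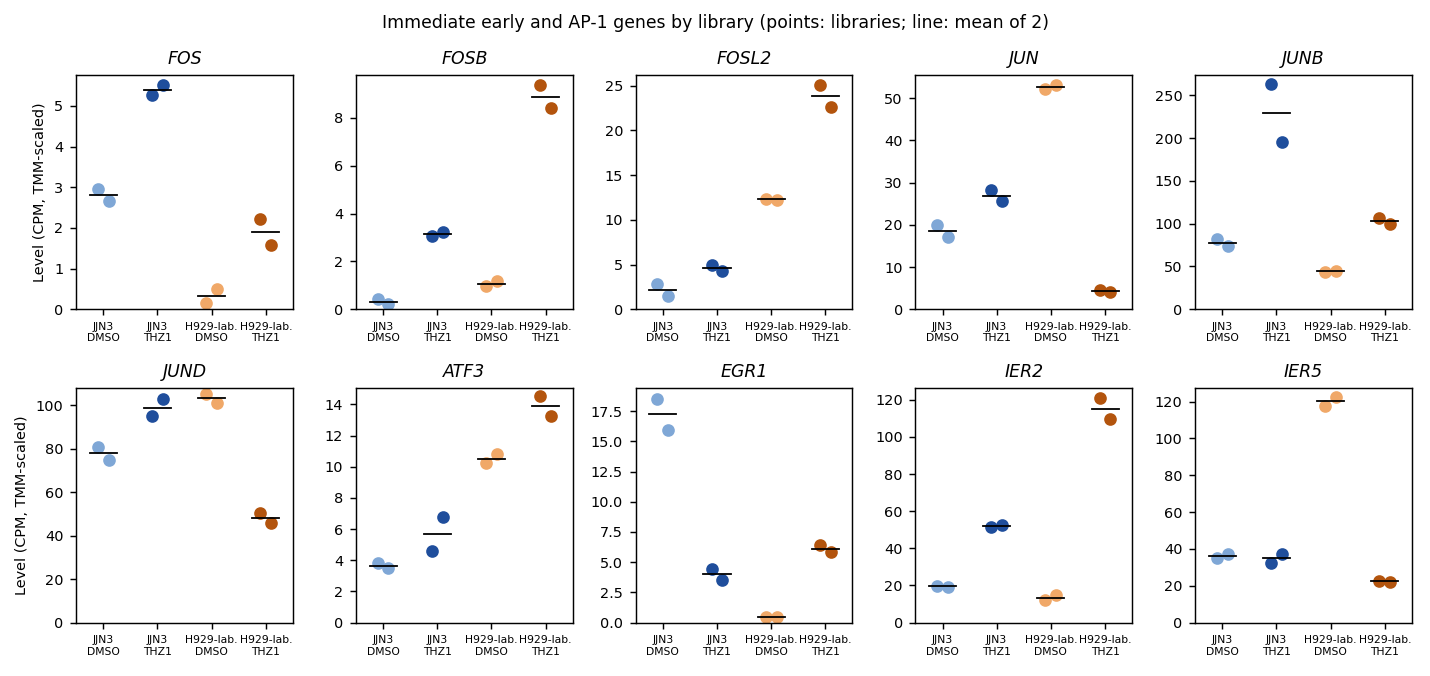
Level of each of the 10 genes in each of the 8 libraries, in CPM with TMM scaling (vertical axis, linear from 0, a separate range for each gene), for JJN3 and for the libraries labelled H929 (H929-lab.), with DMSO or THZ1; points are libraries and lines the mean of 2. EGR1 is highest in JJN3 with DMSO, near 17.2 CPM, whereas JUN and IER5 are highest in the libraries labelled H929 DMSO, at 52.7 and 120.1 CPM.

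Between the H929 labels, 6 of the 10 genes were higher in the libraries labelled THZ1 and 3 were lower, with a median log2 fold change of 1.095 against 0.01 for all genes tested. By the same rule 33.1% of 14863 genes were higher there and 32.6% lower. EGR1 had 8 and 8 counts under DMSO and 122 and 110 under THZ1, a 13.8-fold higher level under THZ1 (log2 fold change 3.79, 95% interval 3.19 to 4.39, adjusted p = 3.71e-09). JUN had 970 and 959 counts under DMSO and 87 and 76 under THZ1. It was 12.2-fold lower under THZ1 (log2 fold change -3.61, 95% interval -3.84 to -3.38, adjusted p = 5.07e-14), the largest fall among the 10.

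The FOS genes and IER2 were all higher under the label THZ1 than under DMSO. FOSB had 18 and 21 counts against 178 and 159, a log2 fold change of 3.06 (95% interval 2.59 to 3.52, adjusted p = 2.14e-09). FOS had 3 and 9 counts under DMSO, 1 library being at the floor of 3, and 42 and 30 under THZ1. Its log2 fold change of 2.51 (95% interval 1.57 to 3.46, adjusted p = 7.78e-05) was 3.52 without the DMSO library of 9 counts and 1.91 without that of 3 counts. FOSL2 had 230 and 221 counts against 477 and 429 (log2 fold change 0.96, 95% interval 0.74 to 1.18, adjusted p = 3.79e-07). IER2 had 223 and 267 counts against 2302 and 2074, and its log2 fold change of 3.11 (95% interval 2.92 to 3.31, adjusted p = 4.4e-14) put it among the largest of the members. In none of these 4 genes did the groups overlap, which again stands without a share over all genes.

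JUNB was also higher under the label THZ1, with 2033 and 1883 counts against 816 and 801 (log2 fold change 1.23, 95% interval 1.09 to 1.37, adjusted p = 4.48e-11). JUND was lower, with 956 and 866 counts against 1951 and 1826 (log2 fold change -1.10, 95% interval -1.24 to -0.96, adjusted p = 2.19e-10). IER5 was lower too, with 431 and 416 counts against 2188 and 2210 (log2 fold change -2.42, 95% interval -2.57 to -2.28, adjusted p = 2.79e-14). Thus JUN, JUND and IER5 were the members that were lower under THZ1, and their groups were widely apart. ATF3 had 190 and 195 counts under DMSO and 276 and 251 under THZ1, and its log2 fold change of 0.41 (95% interval 0.15 to 0.66, adjusted p = 0.00547) was under the limit.

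**Figure D2:**
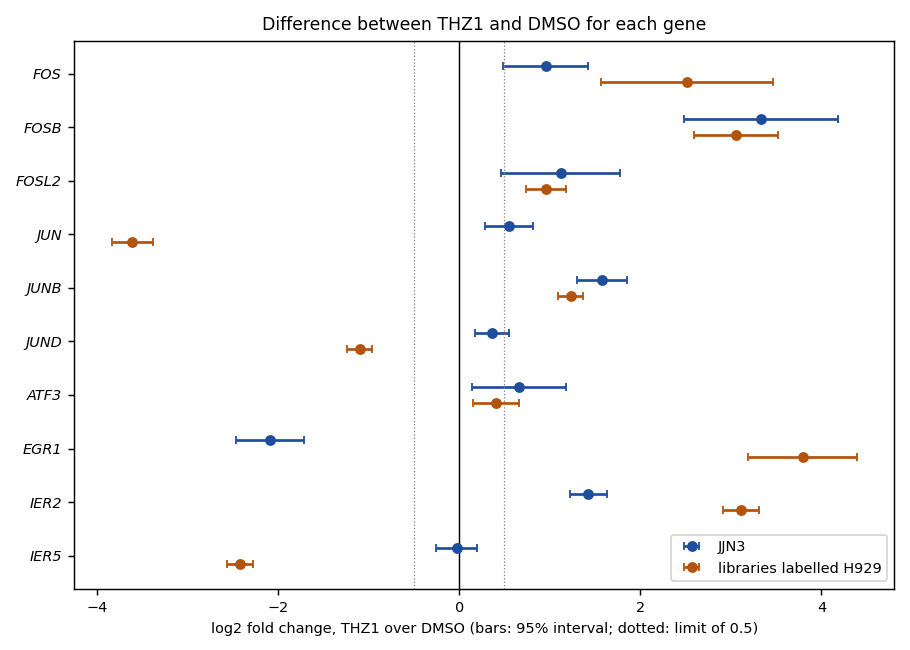
Log2 fold change of THZ1 over DMSO (horizontal axis) for the 10 genes (rows), in JJN3 (blue) and between the libraries labelled H929 (orange); points are edgeR estimates, bars their 95% intervals and dotted lines the limit of 0.5. The estimates for JUN (0.55 and -3.61) and EGR1 (-2.09 and 3.79) lie on opposite sides of 0.

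Because the H929 labels differ in more than treatment, an effect of THZ1 cannot be compared between the lines. What was tested, in a fit over all 8 libraries, was the difference of the log2 fold changes (JJN3 minus H929 labels). It passed for 6 of 10 genes, against 53.7% of 16122 genes tested, a background to be read with the differences between the H929 labels given above. EGR1 had a difference of -5.89 (SE 0.324, adjusted p = 2.48e-10) and JUN one of 4.15 (SE 0.164, adjusted p = 6.92e-12), the 2 largest. IER5 followed with 2.39 (adjusted p = 9.91e-11), IER2 with -1.69 (adjusted p = 2.74e-08), FOS with -1.57 (adjusted p = 0.0154) and JUND with 1.45 (adjusted p = 1.04e-08). The FOS call depended on single libraries of low count: the difference was -0.99 (adjusted p = 0.135) without the first library labelled H929 DMSO and -1.33 (adjusted p = 0.0673) without the first labelled H929 THZ1.

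For the other 4 genes no difference passed the test, and their intervals say how much remains possible. The difference was 0.27 for FOSB (95% interval -0.76 to 1.29), 0.15 for FOSL2 (-0.46 to 0.76), 0.24 for ATF3 (-0.29 to 0.78) and 0.34 for JUNB (0.00 to 0.67, adjusted p = 0.0746). That of JUNB passed without the second JJN3 library with THZ1 (0.52, adjusted p = 0.000183), the library with the lower JUNB count of its pair. Which part of any of these differences comes from treatment in H929 cells cannot be told apart from the other differences between the H929 labels.

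Compared at the same treatment, JJN3 and the libraries labelled H929 held these genes at different levels; line and count table cannot be told apart here. With DMSO, 9 of 10 genes were called different, against 61.5% of all genes tested: EGR1 (log2 difference 5.28, JJN3 minus H929 label), FOS (3.07), JUNB (0.82) and IER2 (0.54) were higher in JJN3, and FOSL2 (-2.54), FOSB (-1.76), IER5 (-1.73), ATF3 (-1.52) and JUN (-1.51) were lower. JUND had a log2 difference of -0.41 (95% interval -0.57 to -0.24) and was not called, the difference for FOS was 4.07 without the library labelled H929 DMSO of 9 counts and 2.48 without that of 3 counts, and the call of IER2 was lost without the first library labelled H929 DMSO (0.40). With THZ1 all 10 were called, against 63.9% of all genes tested. JUN (2.64), FOS (1.502), JUNB (1.15), JUND (1.04) and IER5 (0.65) were then higher in JJN3, and FOSL2 (-2.39), FOSB (-1.496), ATF3 (-1.28), IER2 (-1.15) and EGR1 (-0.61) lower, the last of which was not called without the second JJN3 library with THZ1 (-0.46, adjusted p = 0.0606).

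Ordered by group mean, the libraries labelled H929 THZ1 were highest for 4 genes (FOSB, FOSL2, ATF3 and IER2), those labelled H929 DMSO for 3 (JUN, JUND and IER5), JJN3 with THZ1 for 2 (FOS and JUNB) and JJN3 with DMSO for 1 (EGR1). Of the 30 pairs of neighbouring groups in these orders, 27 differed at an adjusted p under 0.05 whatever the size of the difference. The pairs that did not were IER5 in JJN3 with DMSO and with THZ1 (log2 difference 0.04, adjusted p = 0.727), JUND under the label H929 DMSO and in JJN3 with THZ1 (0.06, adjusted p = 0.47) and FOS in JJN3 with DMSO and under the label H929 THZ1 (0.56, adjusted p = 0.0803). By the stricter limits used for calls, 63.0% of all genes differed between JJN3 with DMSO and the label H929 THZ1, and 67.5% between JJN3 with THZ1 and the label H929 DMSO, so a difference between neighbours is common among all genes. Without the limit on size these shares can only be as high or higher, so 27 of 30 cannot be set against them.

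Transcripts of the JUN and FOS genes were compared per length, as RPKM, since longer genes give more reads. RPKM is CPM divided by the joined length, in kilobases, of all annotated exons of a gene. Protein and its pairs were not measured, so these are shares of transcripts and not the makeup of AP-1. Genes of other AP-1 partners, such as BATF, ATF2 and MAFG, are not in the sums. In JJN3 the 3 JUN genes summed to 87.9 ± 6.23 RPKM with DMSO and 184.0 ± 23.9 RPKM with THZ1 (SD, n = 2 each). JUNB supplied 48.3% of that sum with DMSO and 67.8 ± 5.47% with THZ1, whereas the share of JUND was 45.9% and 28.2 ± 5.23% and that of JUN 5.80% and 4.04%. Under the H929 labels the sum was 92.1 ± 1.02 RPKM with DMSO and 82.4 ± 4.62 RPKM with THZ1, so that the sums lay near each other while the parts differed: JUNB was 26.2% and 68.4%, JUND 58.0% and 30.2%, and JUN 15.8% and 1.44%. The shares of JUNB did not overlap between DMSO and THZ1 under either line label, and no test was run on shares.

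The FOS genes summed to far less per length than the JUN genes in every group, although JUN alone (1.18 RPKM) was below FOSL2 (3.33 RPKM) under the label H929 THZ1. With FOSL1 (the gene of FRA1, listed among the other AP-1 genes) included, they summed to 2.61 ± 0.447 RPKM in JJN3 with DMSO and 4.64 ± 0.129 RPKM with THZ1, and to 7.32 ± 0.437 and 8.23 ± 0.765 RPKM under the H929 labels. FOS took 34.0% and 36.4% of that sum in JJN3, but 1.45% and 7.18% under the H929 labels, where FOSL1 led with DMSO (72.4%) and FOSL2 with THZ1 (40.5%). FOSB took 2.08% and 12.2% in JJN3 and 2.64% and 19.4% under the H929 labels. In JJN3 FOSL1 took 52.9% with DMSO and 37.7 ± 1.95% with THZ1, where it led in 1 library and FOS in the other. For FOS the exon length used was 3186 bp, whereas its Ensembl canonical transcript has 2104 bp. The order of FOS and FOSL1 may depend on this choice, and no other length was tried. Among all members, the highest group mean per length was that of JUNB in JJN3 with THZ1 (125.4 RPKM), and outside the JUN genes that of IER2 under the label H929 THZ1 (37.4 RPKM), and the lowest was that of FOSB in JJN3 with DMSO (0.0557 RPKM).

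**Figure D3:**
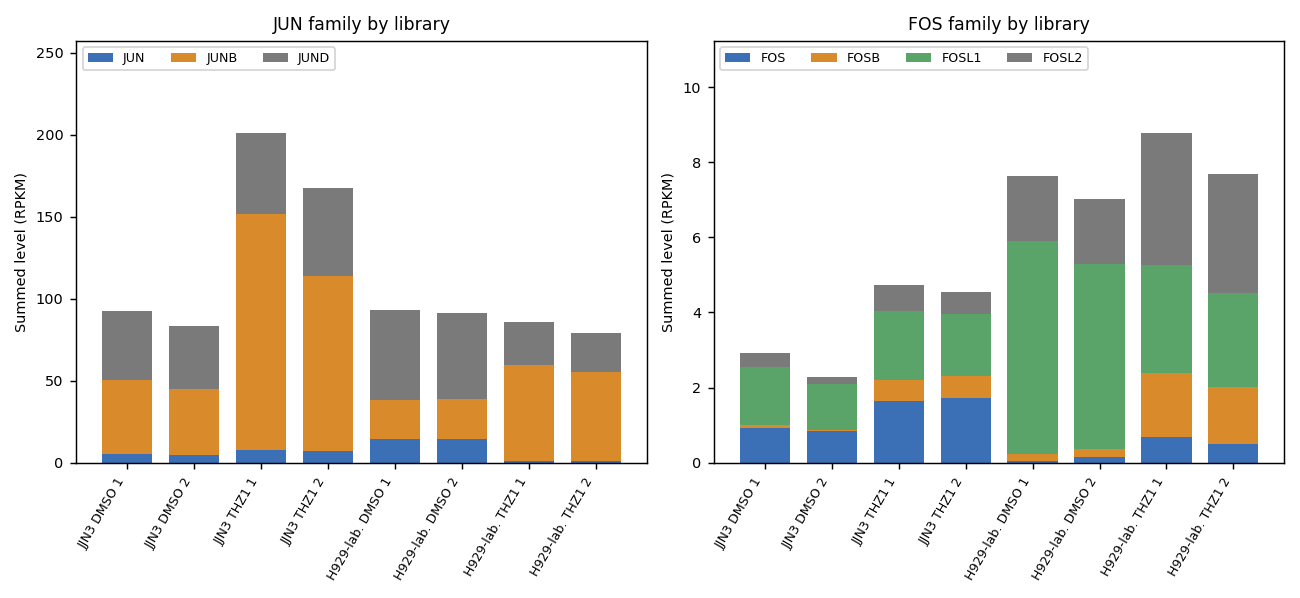
Summed level per length (RPKM, vertical axis) of the JUN genes (left) and of the FOS genes with FOSL1 (right) in each of the 8 libraries; colours are genes, each bar is 1 library, and the axes differ between panels. JUNB is the largest part of the JUN bars in all THZ1 libraries, at 67.8% in JJN3 and 68.4% under the label H929 THZ1.

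The wider pathway was described with gene lists that follow the signal to these promoters. These lists too were chosen with earlier results of these data known. Their counts are to be read beside the shares over all genes tested. These were 20.6% higher and 21.3% lower in JJN3, and 33.1% higher and 32.6% lower between the H929 labels. Of 32 other immediate early genes, 26 were tested in JJN3; 14 were higher and 1, the phosphatase gene DUSP2 (-0.96), lower with THZ1, with a median log2 fold change of 0.54. Those higher included IER5L, a relative of IER5 (1.72), the kinase gene SGK1 (1.65), the small GTPase gene RHOB (1.59) and the zinc finger repressor gene KLF10 (1.21). Between the H929 labels 16 of 26 were higher and 9 lower with THZ1, with a median of 1.09. They included DUSP6 (3.36) and DUSP4 (2.86), phosphatases that switch off MAP kinases, the stress phosphatase subunit PPP1R15A (3.01) and the antiproliferative gene BTG2 (3.01).

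Of the other bZIP genes that pair into AP-1, 10 of 11 were tested in JJN3; 2 were higher and 3 lower, with a median of 0.25, shares near the 20.6% higher and 21.3% lower over all genes. The small MAF genes MAFG (1.58) and MAFF (0.76) were higher, and JDP2 (-2.40), a repressor of AP-1, BATF3 (-2.29) and ATF7 (-0.52) lower. BATF3 had low counts, 18 and 22 with DMSO and 2 and 5 with THZ1, and ATF7 lay close to the limit of 0.5. In the libraries labelled H929, 2 were higher and 7 lower (median -0.81), with JDP2 (-4.15), MAFF (2.13), MAFK (-1.83) and CREB5 (1.03) the most changed of those with ample counts. FOSL1 had a log2 fold change of 0.36 in JJN3 and was not called, and was lower under the label H929 THZ1 (-0.96).

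Of 18 kinases tested of the MAP kinase routes, which carry stimuli to immediate early promoters, 7 were higher and 5 lower in JJN3 (median 0.16). MAP3K1 (1.23) and MAPK8 (1.05), both of the JNK route, and MAPKAPK2 (0.87), a p38 target, were higher, and RPS6KA4, a kinase of histone H3, was lower (-0.88). Between the H929 labels 8 were higher and 5 lower (median 0.31), among them MAPKAPK2 (2.17), RPS6KA4 (-1.58) and RPS6KA1 (-1.10). Over all genes 33.1% were higher and 32.6% lower there. All of these are transcript levels, and kinase activity was not measured.

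Of 14 factors and coactivators that act at these promoters, 9 were higher and 0 lower in JJN3 by edgeR, with a median of 0.53; 1, ELK1, had an unadjusted p under 0.05 on the lower side, and DESeq2 called 0 lower. Among them were the acetyltransferase genes CREBBP (1.15) and EP300 (0.94), the SRF partner ELK4 (0.61) and MEF2A (0.79). SRF itself was higher by a log2 fold change of 0.51 there. In the libraries labelled H929, 6 were higher and 3 lower (median -0.09), with MEF2C (3.08), MEF2D (1.76), MEF2A (1.51) and CREM (1.45) named by size.

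NAB1 and NAB2 are the corepressors that bind EGR1. NAB2 was lower in JJN3 with THZ1 (log2 fold change -0.80) and NAB1 was not called (0.05), so 1 of 2 was lower, with a list median of -0.38. Between the H929 labels 0 of 2 were called by edgeR or DESeq2 (median 0.05), with 0.40 for NAB1, whose unadjusted p was under 0.05, and -0.31 for NAB2. Of 11 genes that bind AU-rich elements or act in mRNA decay, 3 (ZFP36, TNRC6A and KHSRP) were higher and 2 lower in JJN3 (median -0.12). Under the H929 labels 1 was higher and 4 lower (median -0.28). The counts in JJN3 are near the 20.6% higher and 21.3% lower over all genes. Under the H929 labels those shares were 33.1% and 32.6%. ZFP36 (tristetraprolin), which removes AU-rich mRNAs and is itself an immediate early gene, was higher in both (0.63 and 1.30), while HNRNPD (-1.22) and CNOT7 (-0.90) were lower in JJN3 and ZFP36L2 (-1.27) and CNOT1 (-0.81) under the label H929 THZ1. TNRC6A was higher in JJN3 (0.68) and lower under the label H929 THZ1 (-0.85).

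**Figure D4:**
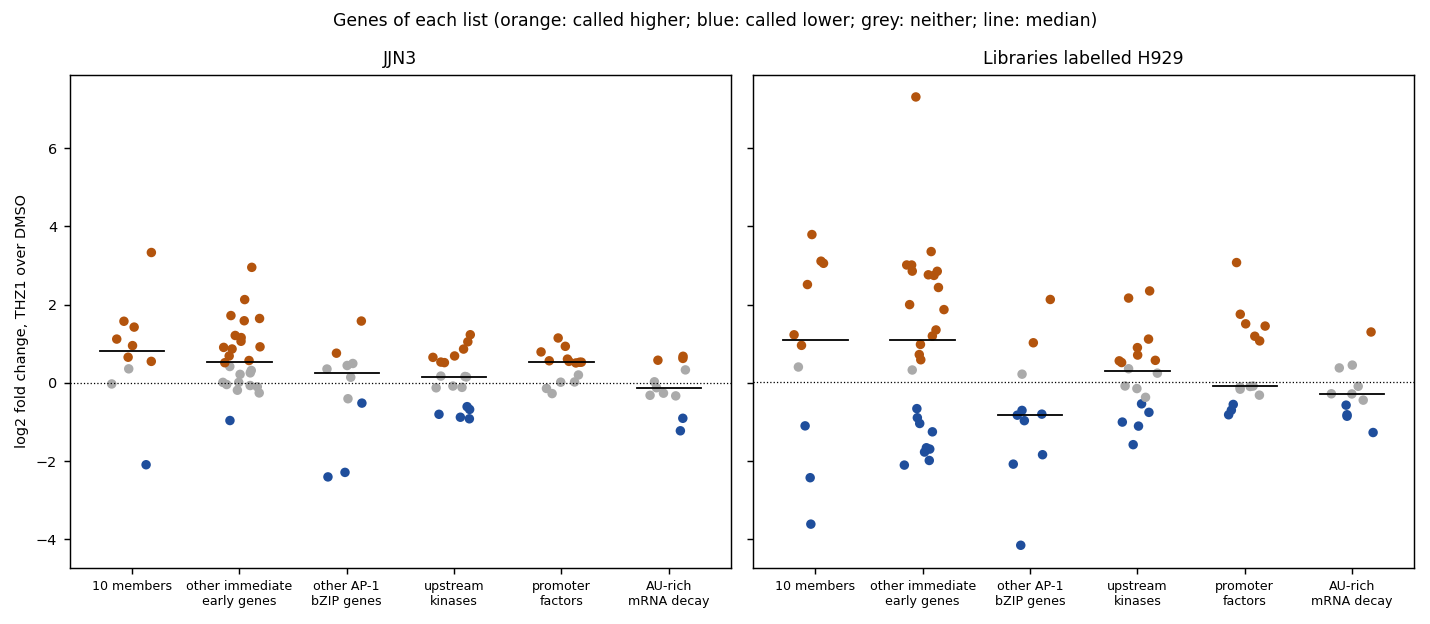
Log2 fold change of THZ1 over DMSO (vertical axis) for the tested genes of each list, in JJN3 (left) and between the libraries labelled H929 (right); each point is a gene, placed sideways at random, orange where called higher, blue where called lower and grey where neither, with the list's median as a line and the median of all genes tested as a dotted line. In JJN3 the medians of the 10 members (0.81), of the other immediate early genes (0.54) and of the promoter factors (0.53) lie above that of all genes (0.00).

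Markers of cell types were read beside these results. Of the 8 plasma cell markers, 5 were lower and 0 higher in JJN3 with THZ1 by edgeR (median -0.58; on the higher side PRDM1 alone had an unadjusted p under 0.05, and DESeq2 called 1), among them SLAMF7 (-1.65), MZB1 (-1.05), TNFRSF17 (-0.64) and XBP1 (-0.61). In the libraries labelled H929, 6 were higher and 2 lower with THZ1 (median 2.59), led by SLAMF7 (6.64), TNFRSF17 (3.61), PRDM1 (2.99) and SDC1 (2.62). Of the stromal and epithelial markers, 0 of 3 tested passed in JJN3 by edgeR or DESeq2, with 0 at an unadjusted p under 0.05, and 4 of 4 (EPCAM, KRT8, KRT18 and COL1A1) were lower under the label H929 THZ1. The summed level of that list was 70.1 to 73.2 CPM in JJN3 with DMSO, 71.8 to 88.3 with THZ1, 217.6 to 224.8 under H929 DMSO and 1.37 to 1.74 under H929 THZ1.

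Of the B cell markers, BCL6 was higher in JJN3 (0.96) and MS4A1 lower (-1.24), the 2 tested, and the 1 tested between the H929 labels did not pass. Of the T cell markers, 1 of 2 tested was higher in JJN3 (CD3E, 1.08), and 1 of 3 was higher (CD3E, 4.92) and 2 (CD3G and CD8A) lower under the label H929 THZ1. The sum of the T cell list was 2.51 to 2.64 CPM in JJN3 with DMSO, 3.39 to 5.08 with THZ1, 8.42 to 8.77 under H929 DMSO and 34.0 to 34.7 under H929 THZ1. No myeloid marker reached the filter, and their sum was at most 1.08 CPM in any library. The part of these markers, and of the mitochondrial share, in the results for the 10 genes was not tested.

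Genes of like pattern were sought among 9675 genes whose average log2 CPM was 3 or more, by the root mean square difference (RMS) of centred log2 CPM over the 4 group means. By this measure EGR1 had no close match: the nearest were JAKMIP2 (RMS 0.292), LACTB2 (0.489) and JAK3 (0.517). FOSB likewise had none, with AC084018.1 (0.509), the early gene IER5L (0.545) and KIF13B (0.602) nearest. The RMS was not scaled to the size of each gene's changes. Genes that vary more between groups can therefore have larger values whatever their pattern. For JUN the nearest were TMCC2 (0.0687), TCN2 (0.0720) and DDAH1 (0.127), and for IER2 they included COL4A4 (0.246) and ARHGAP33 (0.253).

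The other members had closer matches in these 4 values than EGR1, FOSB and IER2, though not all had closer ones than JUN. For FOS they were N4BP2L1 (RMS 0.0382), HDAC9 (0.0699) and GGH (0.108), for FOSL2 B4GALT1 (0.140), PLEKHO2 (0.159) and EVI5L (0.166), and for JUNB CPEB4 (0.0699), MT-RNR1 (0.0862) and FBXO32 (0.116). JUND was closest to HLA-G (0.0253), THOC3 (0.0286) and ZBTB46 (0.0420), ATF3 to LAMA5 (0.0333), HIVEP2 (0.0375) and SSR4 (0.0548), and IER5 to EPN1 (0.0544), TSPAN4 (0.101) and JADE3 (0.102). With 4 group means a small difference is easily met among many genes.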

How the data were processed

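RNA was read as single 50-base reads. Per the labels and the study's methods, alignment to hg19 was by STAR 2.5.2a, keeping uniquely mapping reads, and the authors deposited a raw count per Ensembl gene from featureCounts; the strand setting is not given in the sources used here. Their deposited DESeq2 (1.12.4) tables hold a mean normalized signal, log2 fold change, its error, a test score and p-values, which were not used; symbols came from the JJN3 table. Counts were fitted with edgeR 4.0.16 in R 4.3.3 (TMM, filterByExpr, quasi-likelihood test, Benjamini-Hochberg adjustment), with 4 libraries for each line and all 8 for contrasts between lines. The tests were tried on simulated data. Members and lists were chosen with earlier results of these data known. All members are named; from each list, at most 4 genes called in a line whose average log2 CPM was 3 or more were named by size of change (other list genes were named after their values were seen). Near-identical copies and overlapping genes have uncertain counts. Alternatives were DESeq2 1.42.0, other scalings, filters, limits and fits, a replicate block, and leaving out each library. Some genes that this rule or the search for like patterns would name are not reported here.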

Additional observations from a re-analysis of the deposited data

Results flagged for a closer look

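For 6 genes the log2 fold change in JJN3 minus that between the H929 labels passed edgeR's test of the difference itself. So did 53.7% of the 16122 genes tested, and 6 of 10 is near that share over all genes. The difference was -5.89 for EGR1, 4.15 for JUN, 2.39 for IER5, -1.69 for IER2, -1.57 for FOS and 1.45 for JUND. Treatment and the other differences between the H929 labels cannot be told apart in these values. The FOS call was lost without the first library labelled H929 DMSO (adjusted p = 0.135) and without the first labelled H929 THZ1 (adjusted p = 0.0673).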

How the results depend on the processing

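In JJN3, 7 members were called higher; 4 were with a log2 fold change beyond 1, and 4 to 6 when 1 library was left out, the lowest without the second DMSO library, where FOSL2, JUN and ATF3 were not called (the cause was not tested). A limit of 1 also gave 1006 genes lower and 1397 higher in JJN3, and for the H929 labels 3146 lower. Total counts moved the median of all genes in JJN3 to -0.10, beside which the 0.45 of JUN under that scaling is to be read (0.55 beside 0.00 with TMM). With 1 library left out, 4 values that had not passed changed sign: the log2 fold change of IER5 in JJN3 (-0.13 to 0.069, positive without the first THZ1 library) and the difference between lines for FOSB (-0.17 to 0.83) and FOSL2 (-0.27 to 0.69), negative without the second JJN3 DMSO library, and for ATF3 (-0.092 to 0.47), negative without the second JJN3 THZ1 library. Of the alternative member counts 130 stayed within 1.5 times the main count, and of the single values 622 kept direction and side of the limits. With the replicate number as a block, JJN3 had 7 members higher and 1 lower, and the H929 labels 6 and 3. Samples of the same number did not deviate together (correlations across genes -0.0118 for the H929 labels and -0.0021 for JJN3), so no shift shared by number was seen. Whether the libraries were set up as pairs cannot be told from this. Counts under 10 in a library, as for FOS, FOSB and EGR1 in a DMSO group each, limit the precision of those fold changes.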
